A study of Mus musculus with 6 samples.

Results

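The 5 named long noncoding RNAs, Malat1, Neat1, Airn, Gas5 and Snhg11, were followed across 6 RNA sequencing libraries of lymphatic endothelial cells from the mouse meninges, the membranes around the brain. The 5 genes were taken by symbol from a table of normalised counts for 4233 genes, and all 5 were listed and tested. The libraries came from male C57BL/6J mice aged 6 months, 3 from non-transgenic wild-type littermates (WT) and 3 from hemizygous 5xFAD mice, and each library held sorted cells (CD45-, CD31+, podoplanin+, DAPI-negative single cells) from a pool of 10 mice. The 5xFAD strain has disease-linked transgenes driven by the Thy1 promoter, which is mainly active in neurons, and develops amyloid deposits. The comparison asks how these RNAs differ in the cells between 5xFAD mice and their littermates. App was not analysed here.

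Long noncoding RNAs are transcripts that are not known to be translated into a protein, and they act or are marked by where they stay. Malat1 collects in nuclear speckles, bodies rich in splicing factors, and Neat1 is the scaffold around which paraspeckles form. Airn is transcribed from the paternal allele through the maternally expressed gene Igf2r, which it silences in cis. Gas5 and Snhg11 are host genes: their introns are cut into small nucleolar RNAs, which guide the modification of ribosomal RNA. The spliced Gas5 transcript is degraded by nonsense-mediated decay when it is translated, and Gas5 RNA is known to bind the glucocorticoid receptor.

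Malat1 and the long form of Neat1 are known to end without a poly(A) tail. RNase P cuts their precursors, and the end is held by a triple helix of U-rich stretches and an A-rich stretch. The 100 bases that finish with the A-rich stretch are shown for both because these were the most abundant of the 5 RNAs and share this kind of end. They are from the GENCODE M21 transcripts Malat1-201 (positions 6592 to 6691 of 6983, chr19:5795982-5796081, minus strand) and Neat1-201 (positions 20672 to 20771, the last base of the transcript, chr19:5824708-5824807, minus strand), on GRCm38, the assembly of mm10, in DNA letters from 5′ to 3′. Capitals mark the runs of at least 10 bases that the 2 windows share.
Malat1-201: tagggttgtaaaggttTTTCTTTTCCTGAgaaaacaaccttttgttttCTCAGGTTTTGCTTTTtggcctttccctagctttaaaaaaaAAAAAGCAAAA
Neat1-201: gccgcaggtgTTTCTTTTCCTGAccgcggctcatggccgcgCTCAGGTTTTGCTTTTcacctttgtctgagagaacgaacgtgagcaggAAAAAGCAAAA
The shared runs were 13, 16 and 11 bases long, in the same order, and together made up 40 of the 100 bases in each window. The first and second are U-rich, and the last is the A-rich stretch. The 10 letters TTTTGCTTTT, and within 110 bases after them their reverse complement AAAAGCAAAA, were found on the sense strand of 4 of the 141767 GENCODE M21 transcripts, namely Malat1-201, Neat1-201 and 2 transcripts of Retreg3. Alone, AAAAGCAAAA was in 1.12% and TTTTGCTTTT in 1.08% of transcripts. How the RNA was primed for its linear amplification is not given in the sources used here, and how well it captures ends of this kind was not tested.

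Recovered reads (the deposited values turned back into whole reads) summed to between 10263689 and 11934686 over the listed genes in WT and between 7960827 and 13255050 in 5xFAD, and since the listed genes are only some of the genes, these sums are not sequencing depths. Listed genes without a read numbered 25 to 42 per WT library and 86 to 147 per 5xFAD library. The table holds no gene whose SD of log2(reads + 1) within a genotype reaches 2, so genes that varied more between replicates are not analysed here. No batch is given in the labels. In bulk libraries, fewer cells of a type and less RNA per cell cannot be told apart.

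Malat1 was the most abundant of the 5 RNAs by a wide margin and was the 1 RNA of the 5 that passed the test, with a higher level in 5xFAD. The normalised counts of Neat1 were also higher in each 5xFAD library than in any WT library, but the difference did not pass. Airn was at a lower mean in 5xFAD, and Gas5 and Snhg11 at higher means, with WT and 5xFAD libraries that overlapped for all 3. A call means an adjusted p under 0.05 in limma, a moderated linear model on log2(normalised count + 1), over the 4152 genes with a mean normalised count of at least 10. On that rule 1.88% of all tested genes were higher in 5xFAD, 4.48% were lower and 6.36% changed in either direction, and 1 call among 5 genes is too few to tell apart from that share. Groups did not overlap, with 5xFAD higher, for 2 of the 5 (Malat1 and Neat1), against 7.97% of all tested genes, and for 18.1% in either direction.

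**Figure D1:**
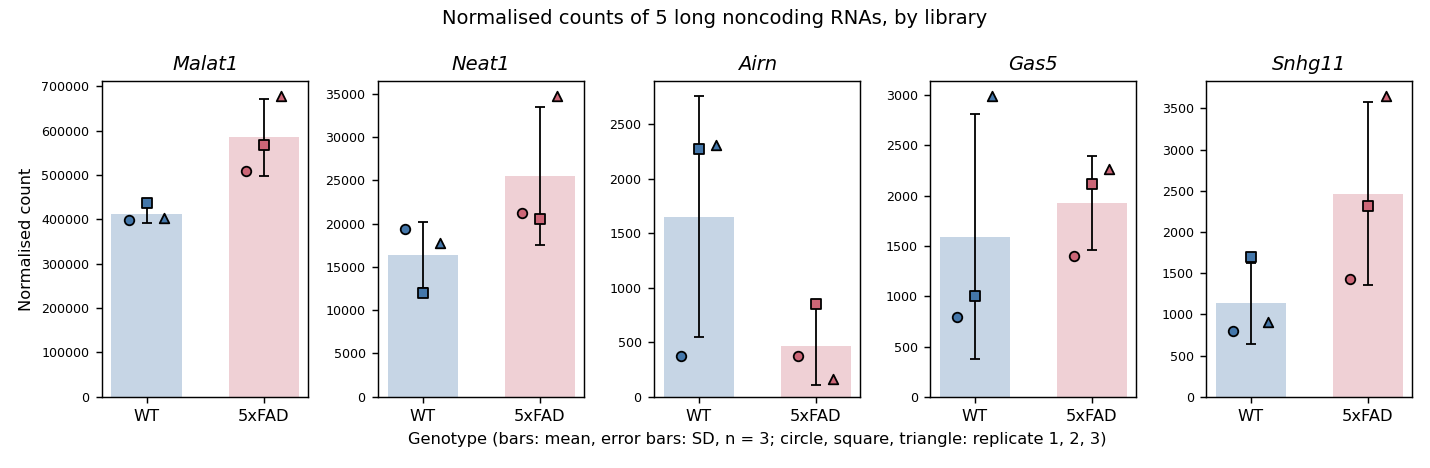
Normalised counts (y axis, 1 scale per gene, each from 0) of the 5 RNAs in WT and 5xFAD libraries, with points for libraries, bars for means and error bars for the SD (n = 3). Malat1 and Neat1 are higher in every 5xFAD library than in any WT library, while the points of Airn, Gas5 and Snhg11 overlap between the genotypes.

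The normalised counts were also divided by the combined length of the annotated exons, which for Neat1 is that of the long form. For Airn, Gas5 and Snhg11 this length (3597, 3760 and 8521 bases) is above that of the longest annotated transcript (1375, 2556 and 5864 bases). The order of the RNAs per kb thus depends on the length used, and other lengths were not tested. In WT the normalised counts per kb were 59126 ± 3006 for Malat1, 788 ± 186 for Neat1, 459 ± 308 for Airn, 424 ± 323 for Gas5 and 133 ± 58 for Snhg11 (SD, n = 3 each). The ranges of Malat1 and Neat1 stood apart from each other in WT (56948 to 62555, against 578 to 931), while Neat1 overlapped with Airn, and Airn with Gas5. The lowest Gas5 library (210) was just above the highest Snhg11 library (199). In 5xFAD the normalised counts per kb were 83797 ± 12333 for Malat1, 1227 ± 385 for Neat1, 513 ± 124 for Gas5, 289 ± 131 for Snhg11 and 129 ± 98 for Airn. By these lengths Airn came after Neat1 in WT and was the lowest in 5xFAD. There the lowest Neat1 library (986) was above the highest Gas5 library (603), while Gas5 overlapped with Snhg11, and Snhg11 with Airn.

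Malat1 (lincRNA, GRCm38 chr19:5795690-5802672, minus strand) had normalised counts of 397665, 436825 and 404136 in WT 1, 2 and 3 and of 508449, 568699 and 678311 in 5xFAD 1, 2 and 3. The 3 WT libraries lay close together, the 5xFAD libraries were spread more widely, and the lowest of them was above the highest WT library. The mean was 412875 ± 20992 in WT against 585153 ± 86118 in 5xFAD (SD, n = 3), giving a log2 fold change of 0.49 (SE 0.093, 95% interval 0.31 to 0.68; limma adjusted p = 7.30e-06), which corresponds to 1.41-fold. A change of this size was common, since 66.3% of the tested genes had a larger absolute log2 fold change. By normalised count Malat1 ranked 3 among the listed genes in 5 libraries and 2 in 5xFAD 3, and few genes share its level. Across the 52 genes nearest to it in level, the median absolute log2 fold change was 0.31, and 1 of them was called, the mitochondrial ribosomal RNA mt-Rnr1, with a rise smaller than that of Malat1.

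The Malat1 call rests on how its spread is estimated. The variance prior of the test received unlimited weight. The error of a gene was then the one that a fitted trend gave at its level, and its own replicates did not count. For Malat1 that SE was 0.093, below the SE of 0.128 from its own variance. The SD of log2(reads + 1) of Malat1 was 0.041 in WT and 0.20 in 5xFAD, against medians of 0.37 and 0.63 over the 52 genes nearest in level. With each gene's own variance alone, the log2 fold change of 0.49 had an adjusted p of 0.329 by linear model, and with 1 prior variance for all levels limma gave an adjusted p = 0.870. DESeq2 gave 0.50 (adjusted p = 0.731) and quantile normalization 0.17 (limma adjusted p = 0.0797), whereas edgeR with TMM kept the call at 0.46 (adjusted p = 0.0116). Each library could be left out without losing it, with log2 fold changes from 0.38 (without 5xFAD 3) to 0.59 (without 5xFAD 1).

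As a share of recovered reads, Malat1 took 4.26, 4.58 and 3.83% in the WT libraries and 4.62, 5.88 and 5.96% in the 5xFAD libraries. The groups did not overlap, but WT 2 and 5xFAD 1 were nearly level. The means were 4.22 ± 0.376% and 5.49 ± 0.749% (SD, n = 3; exact permutation p = 0.1, two-sided, the smallest that 3 against 3 allows). Mitochondrial ribosomal RNAs, the other large block of noncoding RNA in the libraries, took 16.1 ± 1.08% and 16.7 ± 3.46% (SD, n = 3; exact permutation p = 0.8). Set against the reads of the mitochondrial ribosomal RNA mt-Rnr1 in the same library, Malat1 stood at 0.661 ± 0.0459 in WT against 0.807 ± 0.249 in 5xFAD (SD, n = 3; exact permutation p = 0.5), a ratio in which the genotypes overlapped.

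**Figure D2:**
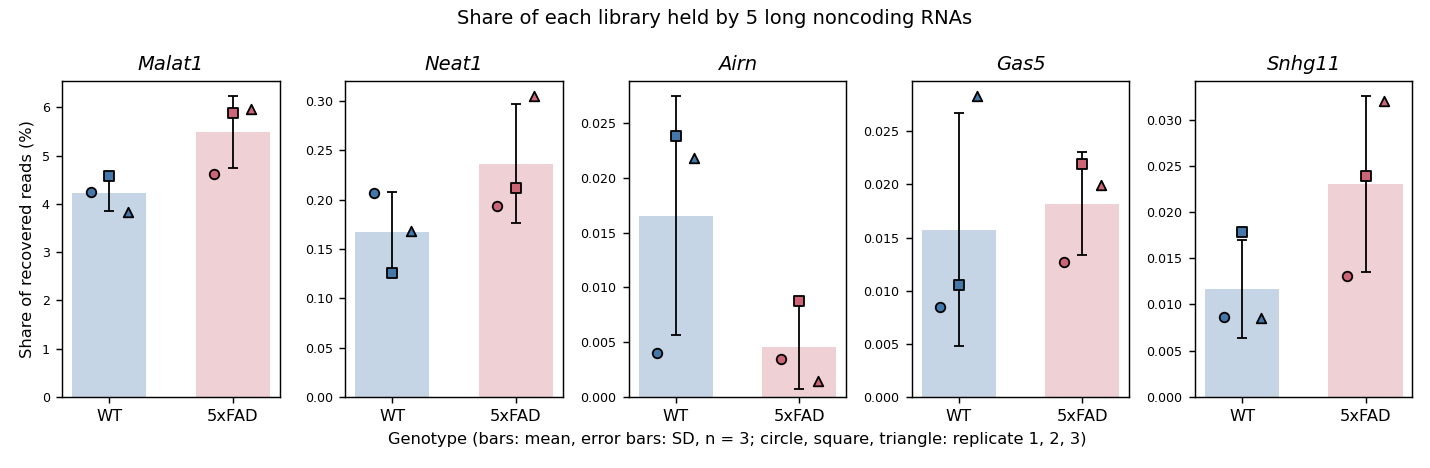
Share of each library's recovered reads (y axis, percent, 1 scale per gene, each from 0) held by the 5 RNAs, with points for libraries, bars for means and error bars for the SD (n = 3). For Malat1 the lowest 5xFAD library (4.62%) lies just above the highest WT library (4.58%), and for Neat1 the genotypes overlap on this scale.

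Neat1 (lincRNA, GRCm38 chr19:5824708-5845478, minus strand), whose RNA holds the paraspeckle together, had normalised counts of 19344, 12013 and 17736 in WT and 21260, 20472 and 34718 in 5xFAD. The 5xFAD 3 library stood well above the other two of its group, which were only slightly above WT 1. The means were 16364 ± 3853 and 25483 ± 8007 (SD, n = 3), giving a log2 fold change of 0.62 (SE 0.41, 95% interval -0.19 to 1.44; limma adjusted p = 0.492). Its log2 fold change was thus above that of Malat1, with a larger error. In shares of reads Neat1 held 0.207, 0.126 and 0.168% of the WT libraries and 0.193, 0.212 and 0.305% of the 5xFAD libraries (exact permutation p = 0.2), and on this scale WT 1 lay above 5xFAD 1. The log2 fold change was 0.38 without 5xFAD 3 and 0.76 without 5xFAD 2.

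Malat1 and Neat1 lie 22035 bases apart on the same strand of chromosome 19. A ratio of their reads within a library does not depend on how libraries are scaled. For each Neat1 read there were 20.6, 36.4 and 22.8 Malat1 reads in the WT libraries and 23.9, 27.8 and 19.5 in the 5xFAD libraries. The genotypes overlapped throughout, with means of 26.6 ± 8.55 and 23.7 ± 4.12 (SD, n = 3; exact permutation p = 0.8). Across the 6 libraries, which include the difference in genotype, Pearson's r of the log2 levels was 0.76 between Malat1 and Neat1, 0.94 between Malat1 and Snhg11 and -0.85 between Neat1 and Airn. These values share the libraries and their scaling factors and are given as a description.

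Of 13 tested genes for paraspeckle proteins 0 passed, too few genes to tell apart from the 6.36% of all tested genes that passed. Of the 13, 5 had a positive and 8 a negative log2 fold change (median -0.29, against -0.02 over all tested genes). For Nono and Sfpq, core paraspeckle proteins that bind Neat1, the log2 fold changes were -1.28 (limma adjusted p = 0.583) and -0.05 (limma adjusted p = 0.985). Among genes for proteins of nuclear speckles, 2 of 19 fell and 0 rose, where 4.48% of all tested genes fell, and 16 of the 19 had log2 fold changes below 0 (median -0.33). Groups did not overlap for 2 genes with higher values in 5xFAD. These were the splicing factor Srsf5 (log2 fold change 0.63, limma adjusted p = 0.658) and Acin1 (0.48, limma adjusted p = 0.862). Nor did they overlap for 2 with lower values, the 2 that fell. Over all tested genes, groups did not overlap for 7.97% with 5xFAD higher and for 18.1% in either direction, and 19 genes are too few to tell apart from these shares.

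Both genes that fell encode splicing regulators of the serine and arginine rich kind. Tra2b went from 3564 ± 1267 normalised counts in WT to 415 ± 236 in 5xFAD (SD, n = 3; log2 fold change -3.21, SE 0.92; limma adjusted p = 0.0114). Srsf4 went from 849 ± 438 to 93.6 ± 62.9 (SD, n = 3; log2 fold change -3.21, SE 1.05; limma adjusted p = 0.0357). In both genes the highest 5xFAD library was below the lowest WT library. The Tra2b call was lost without WT 1, WT 3 or 5xFAD 1, and the Srsf4 call without WT 1, WT 3, 5xFAD 2 or 5xFAD 3 (limma adjusted p from 0.0588 to 0.183 for these fits). Srsf4 also missed the threshold in edgeR with TMM (adjusted p = 0.0516) and, by limma, at a mean of at least 50 (adjusted p = 0.0556) and over genes with reads in every library (adjusted p = 0.0753), and with own variances both genes did (adjusted p = 0.284 for Srsf4 and 0.195 for Tra2b). Son, a large scaffold protein of the speckle, was at 14981 ± 4199 and 8316 ± 5367 (SD, n = 3; log2 fold change -1.11, limma adjusted p = 0.259). Mettl16, whose protein is known to bind the Malat1 end, had a log2 fold change of -0.19 and did not pass. Virma, tested in the same list, was at -0.66 and did not pass.

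Airn (antisense gene, GRCm38 chr17:12741311-12860136, plus strand) had normalised counts of 374, 2274 and 2308 in WT and 375, 851 and 163 in 5xFAD. WT 2 and WT 3 were high, while WT 1 was level with 5xFAD 1 and below 5xFAD 2. The means were 1652 ± 1107 and 463 ± 352 (SD, n = 3), giving a log2 fold change of -1.74 (SE 0.98, 95% interval -3.66 to 0.18; limma adjusted p = 0.381). It had the largest absolute log2 fold change of the 5 RNAs and did not pass. The value depended on single libraries, at -2.61 without WT 1, -1.31 without WT 2, -1.30 without WT 3, -2.34 without 5xFAD 2 and -1.15 without 5xFAD 3, and it passed in none of these fits (limma adjusted p from 0.197 to 0.723). As a share of reads Airn held 0.0166 ± 0.0109% in WT against 0.00455 ± 0.00381% in 5xFAD (SD, n = 3; exact permutation p = 0.2).

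Airn runs across 28354 bases of Igf2r on the opposite strand, and whether strand was used in counting is not given in the sources used here. Without strand, reads in places where exons of the 2 genes meet cannot be told apart. Igf2r, the receptor that carries mannose 6-phosphate proteins and Igf2 to lysosomes, had normalised counts of 563, 2344 and 272 in WT and 4519, 1208 and 1302 in 5xFAD. Its highest and lowest libraries were not those of Airn, and the genotypes overlapped (log2 fold change 1.43, SE 0.92; limma adjusted p = 0.473). Without WT 2 it was 2.29, without WT 3 0.74 and without 5xFAD 1 0.82. The reads of Airn over those of Igf2r were 0.664, 0.970 and 8.47 in the WT libraries and 0.0830, 0.704 and 0.125 in the 5xFAD libraries, so that WT 3 stood far above the rest. The mean came to 3.37 ± 4.42 in WT against 0.304 ± 0.347 in 5xFAD (SD, n = 3; exact permutation p = 0.2). Without WT 3 the WT mean was 0.817, while without 5xFAD 2 the 5xFAD mean was 0.104. Slc22a3, another imprinted gene of the cluster, had a log2 fold change of 0.67 at a mean normalised count of 44.0 in WT (limma adjusted p = 0.853).

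Of 11 tested imprinted genes 0 passed, which so few genes cannot tell apart from the 6.36% of all tested genes that passed. Of the 11, 7 were below 0 in log2 fold change (median -0.38). H19, a maternally expressed noncoding RNA, was at 3176 ± 636 and 5655 ± 4725 normalised counts (SD, n = 3; log2 fold change 0.31, limma adjusted p = 0.908). Of 6 tested genes for proteins of the silencing machinery with which Airn is known to act, 0 passed and 5 had a negative log2 fold change (median -0.85). Ezh2, the Polycomb methyltransferase of histone H3, was at 798 ± 503 and 210 ± 216 (SD, n = 3; log2 fold change -2.20, limma adjusted p = 0.239).

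Gas5 (GRCm38 chr1:161034422-161038539, plus strand) holds 10 annotated small nucleolar RNA entries. Its normalised counts were 789, 1001 and 2990 in WT and 1398, 2119 and 2267 in 5xFAD. WT 3 was the highest of all 6 libraries, and WT 1 and WT 2 were the lowest. The means were 1593 ± 1214 and 1928 ± 465 (SD, n = 3), giving a log2 fold change of 0.50 (SE 0.87, 95% interval -1.21 to 2.22; limma adjusted p = 0.869), close to the log2 fold change of Malat1 with a larger error. Without WT 3 it was 1.09 and without WT 1 it was 0.13. As a share of reads Gas5 held 0.0158 ± 0.0109% in WT against 0.0182 ± 0.00484% in 5xFAD (SD, n = 3; exact permutation p = 0.8). This difference turned below 0 without WT 1 (-0.00122 percentage points) or WT 2 (-0.000203 percentage points).

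Snhg11 (GRCm38 chr2:158375638-158386145, plus strand), which RefSeq lists as a long noncoding RNA and GENCODE M21 as protein coding, holds 2 annotated small nucleolar RNA genes. Its normalised counts were 802, 1698 and 902 in WT and 1434, 2315 and 3648 in 5xFAD. WT 2 lay above 5xFAD 1, and otherwise the 5xFAD libraries were higher. The means were 1134 ± 491 and 2466 ± 1115 (SD, n = 3), giving a log2 fold change of 1.10 (SE 0.88, 95% interval -0.62 to 2.82; limma adjusted p = 0.606). It held 0.0116 ± 0.00533% of reads in WT against 0.0230 ± 0.00955% in 5xFAD (SD, n = 3; exact permutation p = 0.2). Within a library the reads of Gas5 over those of Snhg11 ranged from 0.589 to 3.31 in WT and from 0.621 to 0.97 in 5xFAD, so the 2 host genes did not keep a fixed ratio.

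Snhg12, another host gene for small nucleolar RNAs (lincRNA, GRCm38 chr4:132308623-132311024, plus strand), passed the test. It was the 1 called of 16 tested host genes (6.25%), a share near the 6.36% of all tested genes. Its normalised counts were 356, 106 and 286 in WT and 3.32, 0 and 0 in 5xFAD, which rest on 870 WT reads and 4 5xFAD reads. It thus fell from 249 ± 129 to 1.11 ± 1.92 (SD, n = 3; log2 fold change -7.09, SE 1.06; limma adjusted p = 3.03e-09), and the value was -7.79 without 5xFAD 1, the library with its 4 reads. With so few 5xFAD reads the size depends on the pseudocount (-4.40 with a pseudocount of 10), and with its own variance the call was lost (adjusted p = 0.109). Over the 16 host genes, which include Gas5 and Snhg11, 10 had a positive log2 fold change (median 0.20). Hosts that also encode proteins, such as Eef2, the elongation factor that moves the ribosome, and Rpl3, a protein of its large subunit, had log2 fold changes of 0.59 (limma adjusted p = 0.694) and -1.77 (limma adjusted p = 0.343).

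Of 5 tested genes for nonsense-mediated decay factors, the pathway that degrades Gas5, 0 passed and 4 had a negative log2 fold change (median -1.07). Smg1, the kinase that activates the helicase of this pathway, was at 7128 ± 1673 and 3454 ± 2089 normalised counts (SD, n = 3; log2 fold change -1.30, limma adjusted p = 0.336). Of 5 tested genes for the glucocorticoid receptor, its chaperone or its known targets, 0 passed, again beside 6.36% of all tested genes. Of these 5, 3 had a negative log2 fold change (median -0.84). Nr3c1, the receptor itself, had a log2 fold change of -0.84 (limma adjusted p = 0.708), and the targets Tsc22d3, Dusp1 and Klf9 had -1.73 (limma adjusted p = 0.254), 1.05 (limma adjusted p = 0.468) and 1.36 (limma adjusted p = 0.496). Tsc22d3 and the chaperone gene Hsp90ab1 were lower and Klf9 was higher in each 5xFAD library than in any WT library. Groups did not overlap, in either direction, for 18.1% of all tested genes, and 5 genes are too few to tell apart from that share.

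**Figure D3:**
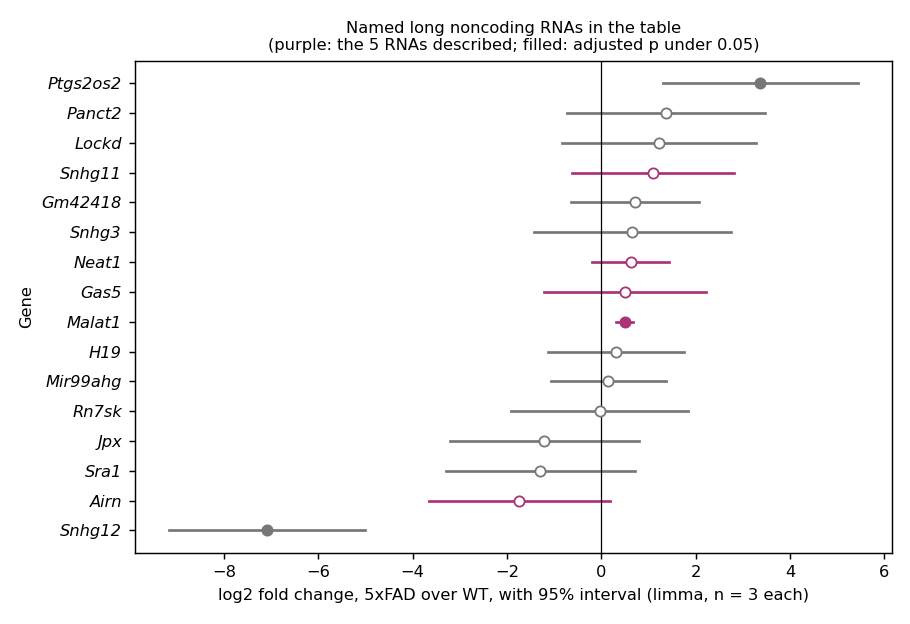
Log2 fold change of 5xFAD over WT (x axis) with its 95% interval for the 16 tested long noncoding or other noncoding RNA genes known by name (y axis), the 5 RNAs in purple, filled where the limma adjusted p is under 0.05. Malat1 has the shortest interval (0.31 to 0.68), Ptgs2os2 and Snhg12 also pass, and the intervals of the other 13 reach across 0.

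Beyond the 5 RNAs, 11 further noncoding RNA genes known by name were tested, and over all 16 the median log2 fold change was 0.50, with 11 positive and 5 negative. Besides Malat1, the calls were Ptgs2os2, a lincRNA beside the cyclooxygenase gene Ptgs2, which rose, and Snhg12, which fell. Of the 16, 12.5% rose and 6.25% fell, on few calls, beside 1.88% and 4.48% of all tested genes. Ptgs2os2 had normalised counts of 4.11, 0.930 and 11.5 in WT and 24.1, 153 and 34.5 in the 5xFAD libraries (log2 fold change 3.37, SE 1.06; limma adjusted p = 0.0257). Every 5xFAD library was above every WT library, at levels of few reads, 19 in WT and 181 in 5xFAD. The call was lost without WT 1, WT 2 or 5xFAD 2 (limma adjusted p from 0.0597 to 0.244), and the log2 fold change was 2.69 without WT 2, 4.04 without WT 3 and 2.58 without 5xFAD 2. Sra1, a coactivator RNA of steroid receptors that also encodes a protein, was at 725 ± 324 and 282 ± 79 (SD, n = 3; log2 fold change -1.29, limma adjusted p = 0.604).

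Genes of a long noncoding type in GENCODE M21 numbered 368 in the table, Malat1, Neat1, Airn and Gas5 among them, and 356 were tested. Of these, 14 (3.93%) rose and 25 (7.02%) fell, beside 1.88% and 4.48% of all tested genes, and the median log2 fold change was 0.23, beside -0.02. With each gene's own variance 0 rose and 3 fell. Most of the calls carry clone or predicted names, 8 of the 14 that rose and 23 of the 25 that fell. The 356 tested genes of this type had a median normalised count of 104, against 783 over all tested genes. Malat1 dominated the reads of this type: all long noncoding genes together took 5.84 ± 0.496% of reads in WT against 7.21 ± 0.885% in 5xFAD (SD, n = 3; exact permutation p = 0.1). Without Malat1 they took 1.62 ± 0.154% and 1.72 ± 0.230% (SD, n = 3; exact permutation p = 0.7).

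**Figure D4:**
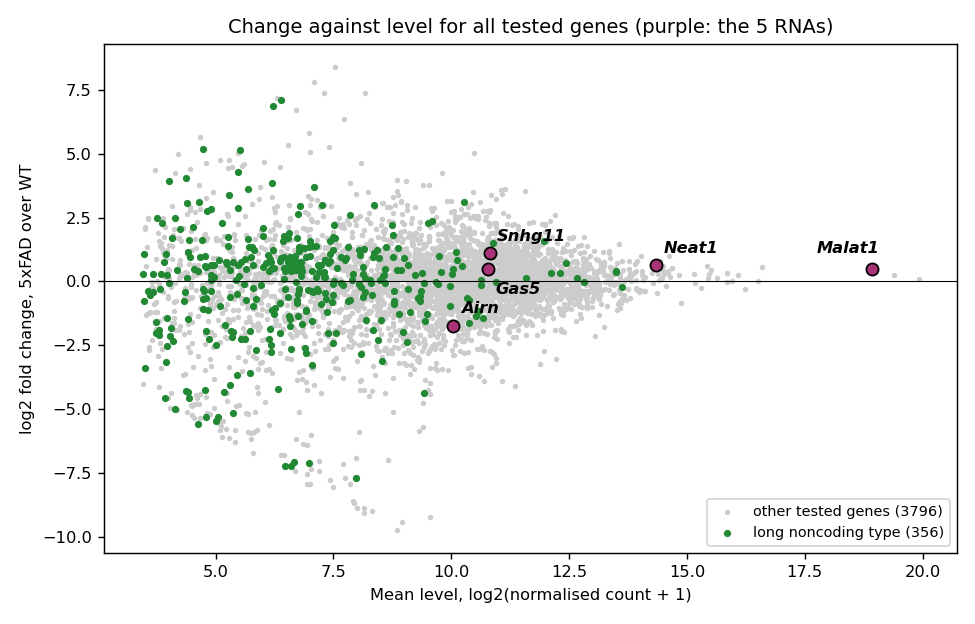
Log2 fold change of 5xFAD over WT (y axis) against mean level as log2(normalised count + 1) (x axis) for the 4152 tested genes, with 356 genes of a long noncoding type in green and the 5 RNAs in purple. Malat1 and Neat1 lie at the abundant end, where fold changes are small for most genes, and most other long noncoding genes lie at the low end, where they scatter widely.

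Named genes of this type that passed, other than Malat1, Ptgs2os2 and Snhg12, were antisense genes and 1 lincRNA, and reads of an antisense gene cannot be told from those of its partner without strand. The lincRNA Lncenc1, known from embryonic stem cells, had normalised counts of 4.11, 0 and 1.77 in WT and 39.8, 10.9 and 204 in the 5xFAD libraries (log2 fold change 4.26, SE 1.05; limma adjusted p = 0.00134). It was highest in 5xFAD 3, and without that library the log2 fold change was 3.19 and the call was lost (limma adjusted p = 0.0866). The value was 3.63 without WT 2 and 5.24 without 5xFAD 2. Fam219aos had no WT read and normalised counts of 8.29, 58.4 and 86.2 in 5xFAD, from 123 reads (limma adjusted p = 2.62e-05). Its call was kept with each 5xFAD library left out in turn, at log2 fold changes from 4.55 (without 5xFAD 3) to 6.17 (without 5xFAD 1). As it had no WT read, leaving out a WT library could not change its log2 fold change of 5.18.

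Hectd2os had normalised counts of 13.1, 4.65 and 0.885 in WT and 185, 17.0 and 82.3 in the 5xFAD libraries (log2 fold change 3.62, SE 1.06; limma adjusted p = 0.0133). Its call was lost without WT 3 (2.87), 5xFAD 1 (2.86) or 5xFAD 3 (3.44), and the log2 fold change was 4.32 without WT 1 and 4.55 without 5xFAD 2. Egfros, antisense to the epidermal growth factor receptor gene, had normalised counts of 8.22, 59.5 and 3.54 in WT and 58.9, 492 and 186 in the 5xFAD libraries (log2 fold change 3.70, SE 1.07; limma adjusted p = 0.0120). Here WT 2 lay above 5xFAD 1, so the groups overlapped although the gene passed. The Egfros call was lost without WT 1 (3.41), WT 3 (2.90), 5xFAD 2 (2.96) or 5xFAD 3 (3.66), and the value was 4.77 without WT 2 and 4.48 without 5xFAD 1.

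Mettl5os, antisense to a gene for an RNA methyltransferase, fell, with normalised counts of 48.5, 22.3 and 7.96 in WT and 0.829, 7.29 and 0 in the 5xFAD libraries (log2 fold change -3.14, SE 1.04; limma adjusted p = 0.0399). The highest 5xFAD library was just below the lowest WT library. The call was lost without WT 2 (-3.09), 5xFAD 1 (-2.92) or 5xFAD 3 (-2.48), and the value was -3.78 without WT 3 and -4.01 without 5xFAD 2. Without WT 1, its highest library, Mettl5os was under the minimum mean and was not tested. It passed in 10 of 20 alternatives, and not with edgeR (adjusted p = 0.118 with TMM), DESeq2 (adjusted p = 0.0957), the robust prior (limma adjusted p = 0.0715), a pseudocount of 10 (limma adjusted p = 0.198) or quantile normalization (limma adjusted p = 0.206).

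The listed genes near the 5 RNAs were too few to tell their calls apart from the 6.36% of all tested genes that changed. Malat1 and Neat1 counted as neighbours of each other, and Ltbp3, Map3k11, Pcnx3 and Rela counted for both. Within 250 kb, 5 listed genes lay by Malat1, 5 by Neat1, 3 by Airn, 4 by Gas5 and 5 by Snhg11, all of them tested, and the 1 call among them was Malat1 as a neighbour of Neat1. Most had a positive log2 fold change, 4 of 5 by Malat1, 4 of 5 by Neat1, 2 of 3 by Airn, 3 of 4 by Gas5 and 3 of 5 by Snhg11. Beside Malat1 these included Pcnx3, a membrane protein of the pecanex family, at 1.22 (limma adjusted p = 0.538), and Rela, a subunit of NF-kappaB, at 0.82 (limma adjusted p = 0.782). Ltbp3, a binding protein of latent TGF-beta on the far side of Malat1 from Neat1, had a log2 fold change of -0.23 (limma adjusted p = 0.936). Zbtb37, a zinc finger gene that overlaps Gas5 by 428 bases on the opposite strand, was at 1917 ± 1244 normalised counts in WT against 1014 ± 367 in 5xFAD (SD, n = 3; log2 fold change -0.78, limma adjusted p = 0.771). Tcp1, a chaperonin subunit in the region of Airn, was lower in each 5xFAD library than in any WT library (1901 ± 257 and 1294 ± 482 normalised counts; SD, n = 3) and did not pass (log2 fold change -0.63, limma adjusted p = 0.822). The same held for Rprd1b, a regulator of RNA polymerase II near Snhg11 (log2 fold change -2.42, limma adjusted p = 0.183). Over all tested genes, groups did not overlap for 18.1% in either direction.

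The genes whose log2 levels followed each RNA most closely over the 6 libraries were sought among all tested genes by Pearson's r. They were Zbtb1 (0.99), Cald1 (0.98) and Gm14258 (0.97) for Malat1, and Pstpip1 (0.98), Vit (0.98) and Vps8 (0.97) for Neat1. For Airn they were Zfp369 (0.98), Zmiz1 (0.98) and Aldh8a1 (0.98), for Gas5 Pfdn5 (0.98), Spc24 (0.98) and Gm2822 (0.97), and for Snhg11 Styk1 (0.99), Zdhhc5 (0.99) and Me3 (0.97). With 6 libraries such values are common: between 16 (Gas5) and 68 (Malat1) genes had an r over 0.9. None of these 15 genes passed the test (the lowest limma adjusted p was 0.0896, for Gm14258).

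The label of the cells was checked against markers. All 12 lymphatic endothelial markers were listed, among them Prox1, Flt4 and Lyve1, and 0 passed, with summed normalised counts of 265688 to 317686 in WT and 244787 to 373424 in 5xFAD. Of markers of other cells, 2 of 21 neural and glial genes were listed, 6 of 14 of meningeal fibroblasts, 4 of 10 of mural cells, 7 of 12 of blood endothelium, 1 of 13 of leukocytes and 1 of 8 of erythroid cells and platelets, and 0 of these passed by limma. The 2 neural and glial genes summed to 279 to 1345 normalised counts in WT and 1125 to 3383 in 5xFAD, and for Slc1a3, a glutamate transporter of astrocytes, the log2 fold change was 2.21 (limma adjusted p = 0.210), with 3.09 when WT 2 was left out and 1.64 when WT 3 was. Summed normalised counts in WT and 5xFAD were 26572 to 64662 and 26233 to 32445 for the fibroblast markers. For the blood endothelial markers they were 15568 to 27495 and 20304 to 27640. The table holds no gene beyond the SD limit given above, so an unlisted marker does not show that its cells were absent. With few markers of each kind, 0 calls cannot be told apart from the 6.36% of all tested genes that were called. The part of other cells in the levels of the 5 RNAs was not tested.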

How the data were processed

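Per the labels' protocols, the PicoPure kit gave the RNA, which was amplified linearly. The deposited unit is a normalised signal, in which each library's gene counts share 1 factor. Per the submitters' processing notes, the tools included Trimmomatic, FastQC, Salmon and DESeq2 with the build mm10, and versions are not given in the sources used here. Dividing each column by its smallest value above 0 gave whole numbers for 100% of values (tolerance 1e-06), taken as reads, and edgeR 4.0.16 with TMM called 80 genes higher and 171 lower on them.

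Genes with a mean of at least 10 (4152 of 4233) were tested on log2(value + 1) with limma 3.58.1 in R 4.3.3, the prior variance following level and p-values adjusted by Benjamini-Hochberg over all tested genes. Fold changes on this scale understate those of low genes. The code was tested on simulated counts. Shares and ratios were compared by exact two-sided permutation, which for 3 against 3 cannot go under 0.1. Each library is a pool of mice, so any spread is one between pools. The limma error of a gene came from a trend fitted over all tested genes at its level, not from the gene's own spread between pools. Counting intervals were not used.

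The 5 RNAs, the lists (16 lists of 353 symbols, 120 of them listed) and the tests were chosen with earlier results of these data known. Named were the 5 RNAs, up to 4 called genes per list, called long noncoding genes (up to 8 per direction, without clone names), genes within 250 kb and the 3 genes most alike in pattern. Other genes named with values, such as Nono or Ezh2, were chosen after their values were seen. A few genes are not reported here by name, and the counts of genes still cover them. Positions, types and transcript sequences are from GENCODE M21 (GRCm38), in which 4178 listed genes had 1 position. Alternatives changed the pseudocount, filter, prior, weights, scaling and tool, left out libraries, or used DESeq2 1.42.0 and a replicate block. Library numbers did not pair the samples.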

Additional observations from a re-analysis of the deposited data

How the results depend on the processing

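The log2 fold changes of the 5 RNAs kept their direction in all 24 alternatives (23 for Airn), and Neat1, Airn, Gas5 and Snhg11 passed in none. Malat1 lost its call with 1 prior variance (0.49), each gene's own variance (0.49), quantile normalization (0.17) and DESeq2 (0.50), and kept it in the other 20. For 1 prior variance and own variance the fold change is the same, and the error and its degrees of freedom differ. With DESeq2 the log2 fold change was nearly the same, and the SE was 0.62 against 0.093 in the main fit. Quantile normalization gives the same value to genes of the same rank. Malat1 ranked 2 in 5xFAD 3 and 3 in each other library, so under this setting its value could differ only in 5xFAD 3. Leaving out single libraries moved Malat1 between 0.38 and 0.59.

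Over all genes, 78 were higher and 186 lower, and of the long noncoding type 14 and 25. These became 49 and 116 (long noncoding 7 and 9) at a mean of at least 50, where fewer genes are tested, and 26 and 53 (4 and 4) over genes with reads in every library. Each gene's own variance left 3 and 13 (0 and 3). Quantile normalization gave 120 higher and 160 lower (22 and 19), and DESeq2 167 and 264 (24 and 31); the cause was not tested. Among genes that meet the spread limit in each of the 20 choices of 3 libraries, an alternative chosen after seeing the data that leaves out genes with large differences, 1 was higher, Malat1, and 0 lower by limma (1 and 0). Without single libraries, 54 to 85 were higher and 143 to 192 lower (10 to 13 and 21 to 24). With the replicate block there were 80 higher and 190 lower (13 and 26) and the Malat1 call was kept; deviations of libraries with the same number had correlations of 0.00247, -0.0157 and -0.0126, and 0 of 6 libraries was closest to its own number. Scaled to equal totals, the median over all genes shifted from -0.02 to -0.14 (log2) and Malat1 to 0.37. With own variances Snhg12, Mettl5os, Ptgs2os2, Hectd2os, Egfros, Lncenc1, Fam219aos, Srsf4 and Tra2b lost their calls too (adjusted p from 0.109 to 0.489), and Ptgs2os2 also over genes with reads in every library (limma adjusted p = 0.0637).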
